A study of Mus musculus with 4 samples.

Results

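The 39 genes described here encode the transporters and enzymes of glycolysis (21 genes) and the sensors, regulators and targets of the hypoxia response (18 genes). They were chosen by symbol from a table of 52630 mouse genes and were found on 40 identifiers, because Aldoa stands on both ENSMUSG00000030695 and ENSMUSG00000114515. The table gives TPM, a transcript abundance scaled by transcript length and by library, so levels can be compared between genes. The cells were AML12, a non-tumour mouse hepatocyte line derived from animals that carry a human TGF-alpha transgene. They were infected with 200 µl of concentrated lentivirus carrying a control hairpin (shCtrl, 2 libraries) or a hairpin against Topors (shTopors, 2 libraries), and RNA was collected 5 days after infection. Topors encodes an E3 ligase for ubiquitin and SUMO. Both groups grew in DMEM/F12 with 10% serum, an insulin, transferrin and selenium supplement and 0.1 µM dexamethasone. No oxygen level and no hypoxic treatment is given in the labels, 1 hairpin name stands for the knockdown, and the labels do not tell whether replicates were grown apart. The p-values thus reflect variation among 4 libraries that could be technical.

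Glycolysis splits glucose into pyruvate in the cytosol, and lactate dehydrogenase regenerates the NAD that keeps it running. In cells with enough oxygen, prolyl hydroxylases mark the HIF alpha subunits, the von Hippel-Lindau protein binds the mark, and the subunits are degraded. In low oxygen HIF alpha accumulates, pairs with ARNT and binds short DNA elements near genes for glucose uptake, glycolysis, angiogenesis, mitophagy and collagen hydroxylation. Adult hepatocytes use liver isoenzymes suited to glucose release, such as the liver pyruvate kinase and the transporter GLUT2, and dividing cells tend to use the broadly expressed forms.

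Tests covered the 13509 genes whose mean reached 1 TPM, as log2(TPM + 1) in limma. Topors stood at 21.9 and 29.2 TPM in the controls and 4.31 and 4.65 TPM after knockdown, so both knockdown libraries went with their labels. Of 10 hepatocyte markers, 9 had a mean of at least 1 TPM, and the list summed to between 6763 and 9135 TPM. The keratin genes Krt8 and Krt18 in it were each at 1719 TPM or more in every library. The sum therefore does not show how the other markers stood. None of the 7 stellate cell, 7 endothelial and 7 leukocyte markers reached that mean, and these lists summed to at most 0.436, 0.227 and 1.5 TPM in any library. The median log2 change of all tested genes was -0.18, while quantile normalization brought it to -0.0064 and median-of-ratios size factors to -0.016. TPM keeps no depth, so how many reads a value rests on is unknown. In this bulk RNA, fewer cells that express a gene and less of its RNA per cell cannot be told apart.

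Of the 40 identifiers, 36 were tested, 19 for glycolysis and 17 for the hypoxia response, and all 36 had a mean of at least 1 TPM in both groups. No member passed an adjusted p of 0.05 in limma, either higher or lower, where 5 of all tested genes did (0.037%, with 0.0074% higher and 0.0296% lower). Topors itself did not pass, with a log2 change of -2.265 (SE 0.288, adjusted p = 0.0823 in limma). The absence of calls among members thus says little about smaller changes. Without adjustment, at p under 0.05, 6 glycolysis genes were higher and 1 was lower, and 2 hypoxia-response genes were higher and 2 lower. Over all tested genes 3.98% were higher and 10.7% lower at that p. The knockdown libraries stood far apart for these genes, so each is described on its own.

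Transcripts of glycolysis were higher in shTopors 1 than in both controls for 17 of 19 tested genes, against 28.9% of all tested genes. In shTopors 2 the same count was 8 of 19, against 26.1%, while 8 lay below both controls, against 50.8%, and 3 between them, against 23.1%. With either other scaling, 10 lay above and 7 below in shTopors 2 and 18 lay above in shTopors 1. Of all tested genes, median-of-ratios scaling put 39.4% above and 39.9% below in shTopors 2 and 41.3% above in shTopors 1, and quantile normalization put 40.8%, 37.5% and 40.1% there. At least 2-fold above the higher control on the TPM + 1 scale were 12 of 19 genes in shTopors 1 (3.02% of all tested genes) and 1 of 19, Pfkp, in shTopors 2 (0.992%). None was 2-fold below the lower control in either, against 5.88% and 4.33%. Set against the control mean, the median log2 difference came to 1.29 for shTopors 1 and -0.012 for shTopors 2, while all tested genes had medians of -0.19 and -0.16. Of the 19 genes, 18 were higher in shTopors 1 than in shTopors 2, against 48.3% of all tested genes. Summed over the list, glycolysis genes took 0.408% and 0.383% of TPM in shCtrl, 1% in shTopors 1 and 0.45% in shTopors 2.

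**Figure D1:**
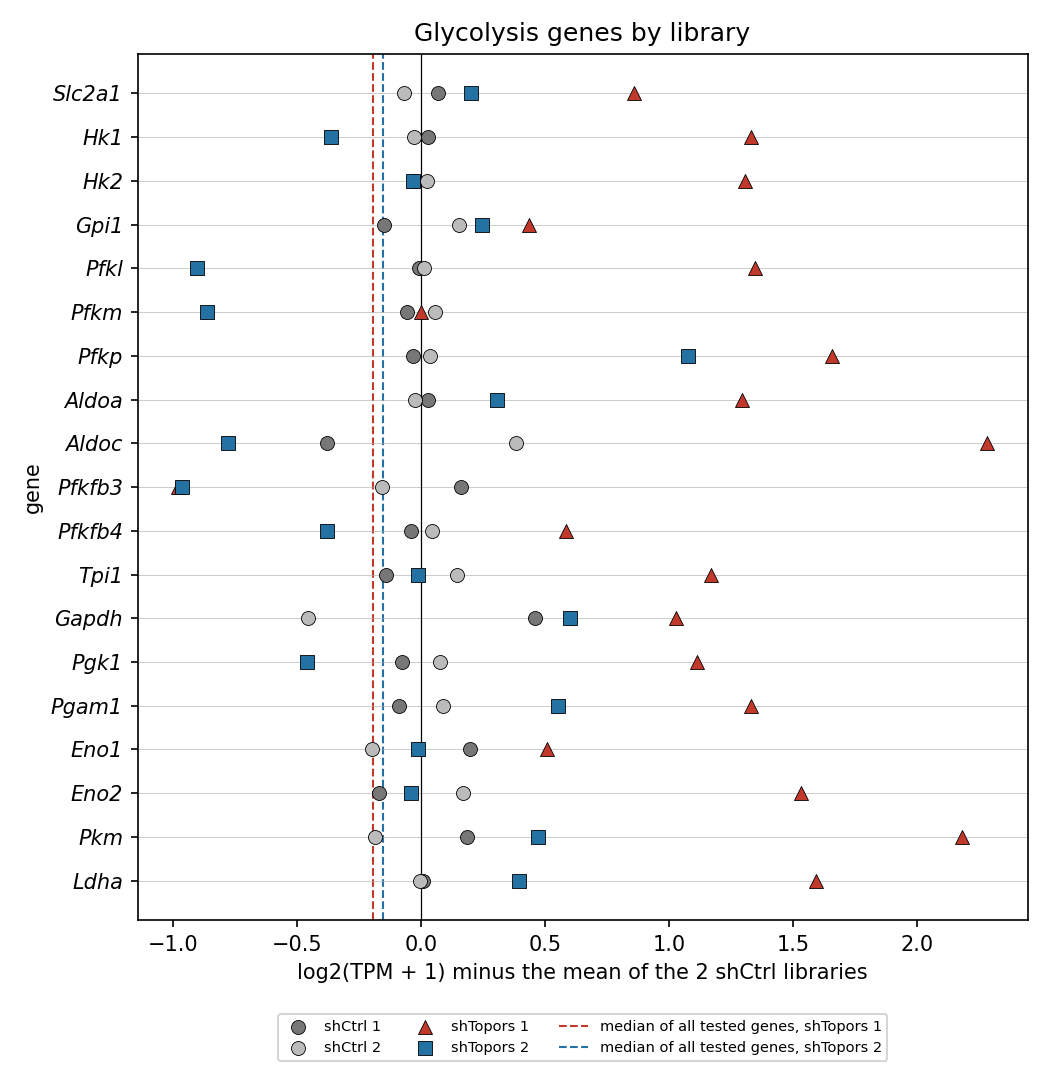
Difference in log2(TPM + 1) from the mean of the 2 shCtrl libraries (x axis) for the 19 tested glycolysis genes (y axis), with 1 symbol per library and dashed lines at the median of all tested genes in each knockdown library. The shTopors 1 triangles lie right of both controls for 17 genes, while the shTopors 2 squares lie on either side and Pfkfb3 is left of both controls in both libraries.

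When shTopors 1 alone was tested against the controls, 13 of 19 glycolysis genes rose and 1, Pfkfb3, fell at an adjusted p of 0.05 in limma. All tested genes gave 5.09% and 10.9% in the same directions. With shTopors 2 alone, 1 of 19 rose, Pfkp, and none fell, against 1.82% and 6.67%. In these fits the lone library is assumed to vary like the controls, and the difference between the knockdown libraries has no replicate.

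Glucose enters through facilitative transporters, and lactate leaves through monocarboxylate transporters. Slc2a1, which encodes the broadly expressed transporter GLUT1, stood at 33.5 and 30.3 TPM with shCtrl, and 58.6 (shTopors 1) and 36.7 TPM (shTopors 2) after knockdown. Both knockdown libraries were above both controls, but shTopors 2 only by 1.15-fold over the control mean, and the log2 change of 0.53 (SE 0.30, adjusted p = 0.446 in limma) did not pass. Slc2a3, the GLUT3 gene, was listed at 0 in shCtrl 1 and in both knockdown libraries and at 0.0326 TPM in shCtrl 2. Slc16a3, which encodes the lactate exporter MCT4, was at 0.0255 and 0.0236 TPM in the controls, 0.626 TPM for shTopors 1 and listed at 0 in shTopors 2. Neither gene was tested.

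Hexokinases trap glucose as glucose 6-phosphate. Hk1 stood at 24.3 and 23.3 TPM in the controls, against 61.3 TPM for shTopors 1 and 18.3 TPM for shTopors 2. Hk2, the hypoxia-inducible form, was at 4.65 and 4.85, 13.2 and 4.62 TPM in the same order. In shTopors 1 they were 2.58-fold and 2.79-fold the control mean, and in shTopors 2 both lay below both controls, Hk2 only just. Gpi1, which converts glucose 6-phosphate to fructose 6-phosphate, was at 227 and 280.1 TPM with shCtrl, and 341 (shTopors 1) and 299 TPM (shTopors 2) after knockdown, above both controls in both.

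Phosphofructokinase, the committed step, has 3 subunit genes, and they did not move alike. Pfkp, the platelet form, stood at 8.04 and 8.47 TPM in the controls, against 28.2 TPM for shTopors 1 and 18.5 TPM for shTopors 2. Its groups were 8.26 ± 0.305 and 23.4 ± 6.88 TPM (SD, n = 2), 2.83-fold apart, with a log2 change of 1.37 (SE 0.31) and an adjusted p = 0.172 in limma. That p was 0.000157 without shTopors 2 and 0.0342 without shTopors 1, was 0.69 and 0.872 without shCtrl 1 and shCtrl 2, and ranged from 0.122 to 0.382 over the 8 other settings. Pfkl, the liver form, stood at 54.2 and 54.9 TPM with shCtrl, and 140.2 (shTopors 1) and 28.7 TPM (shTopors 2) after knockdown. The knockdown libraries thus lay on opposite sides of the controls, 2.57-fold and 0.526-fold the control mean. Pfkm, the muscle form, was at 33.8 and 36.6 TPM in the controls, against 35.2 TPM for shTopors 1 and 18.9 TPM for shTopors 2.

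Pfkfb3 and Pfkfb4 encode enzymes that set fructose 2,6-bisphosphate, the activator of phosphofructokinase, and both are known HIF targets. Pfkfb3 stood at 37.6 and 29.9 TPM in the controls and 16.5 and 16.7 TPM after knockdown. It was the 1 tested glycolysis gene below both controls in both knockdown libraries, against 35.2% of all tested genes, and its levels there were nearly equal. Its groups were 33.7 ± 5.43 and 16.6 ± 0.145 TPM (SD, n = 2), 2.03-fold apart, with a log2 change of -0.97 (SE 0.27) and an adjusted p = 0.222 in limma. Pfkfb4 was at 1.64 and 1.80 TPM with shCtrl, and 3.07 (shTopors 1) and 1.09 TPM (shTopors 2) after knockdown.

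Aldolase cleaves the 6-carbon sugar, and triosephosphate isomerase interconverts the products. Aldoa (ENSMUSG00000030695) stood at 497 and 479 TPM in the controls, against 1198 TPM for shTopors 1 and 604 TPM for shTopors 2, above both controls in both. Its log2 change was 0.80 (SE 0.32, adjusted p = 0.324 in limma), and the untested second Aldoa identifier was at most 0.758 TPM in any library. Aldoc, the brain form, was at 1.07 and 2.51 TPM with shCtrl, and 12.1 (shTopors 1) and 0.57 TPM (shTopors 2) after knockdown, which is above both controls in one knockdown library and below both in the other. Tpi1 was at 486 and 593 TPM in the controls, against 1209 TPM for shTopors 1 and 533 TPM for shTopors 2, where it lay between the controls.

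Apart from Eno2, the later enzymes were among the most abundant members. Gapdh stood at 445 and 236 TPM with shCtrl, and 661 (shTopors 1) and 492 TPM (shTopors 2) after knockdown. Both knockdown libraries were above both controls, shTopors 2 by little over shCtrl 1, and the controls differed widely. Pgk1, which makes the first ATP, was at 541 and 601 TPM in the controls, against 1232 TPM for shTopors 1 and 414 TPM for shTopors 2, on opposite sides of the controls. Pgam1, phosphoglycerate mutase, was at 232 and 263 TPM with shCtrl, and 622 (shTopors 1) and 363 TPM (shTopors 2) after knockdown. The Pgam1 groups were 247 ± 21.6 and 492 ± 183 TPM (SD, n = 2), with a log2 change of 0.94 (SE 0.29, adjusted p = 0.242 in limma). Eno1 was at 400.0 and 304 TPM in the controls, against 497 TPM for shTopors 1 and 346 TPM for shTopors 2, and Eno2, the neuronal enolase, at 0.901 and 1.41, 5.20 and 1.08 TPM. In shTopors 2 both enolases lay between the controls.

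Pkm, the pyruvate kinase of most tissues and tumours, had the highest TPM of the members in shCtrl 1 and in both knockdown libraries, and in shCtrl 2 Pgk1, Tpi1 and Ndrg1 were higher. It stood at 720.2 and 557 TPM with shCtrl, and 2876 (shTopors 1) and 878 TPM (shTopors 2) after knockdown, which is 4.50-fold and 1.37-fold the control mean. Its log2 change was 1.32 (SE 0.50, adjusted p = 0.302 in limma), and with 1 library left out the change ranged from 0.47 to 2.18. Ldha, which turns pyruvate into lactate, was at 328 and 326 TPM in the controls, against 987 TPM for shTopors 1 and 430.5 TPM for shTopors 2. The Ldha controls differed little, and both knockdown libraries were above them, by 3.02-fold and 1.32-fold over their mean. Its log2 change was 0.99 (SE 0.37, adjusted p = 0.300 in limma).

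Several of these genes have near-identical copies that share reads, which makes their values uncertain. The copies given here were chosen after their values were seen. Pgam1-ps2 stood at 45.01 and 49.1 TPM in the controls and 129 and 75.5 TPM after knockdown. Gapdh-ps15 stood at 31.1 and 22.1 TPM in the controls and 46.6 and 33.9 TPM after knockdown, and Eno1b at 158 and 109 TPM and at 186 and 140.0 TPM. Of the 40 identifiers, 7 overlap another gene on the same strand and 18 one on the opposite strand in GENCODE M21, and the sources used here do not give whether counting used strand.

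Isoenzyme shares can be read within a library, where a scaling factor common to all genes cancels. Pfkp made up 8.38% and 8.47% of the 3 phosphofructokinase transcripts in shCtrl, 13.9% in shTopors 1 and 28.0% in shTopors 2. The Pfkp share was thus highest in shTopors 2, where the 3 transcripts together came to 66.1 TPM, against 96.0 and 99.99 TPM in shCtrl and 204 TPM in shTopors 1. Pklr, the liver and red cell pyruvate kinase, made up 5.55% and 6.002% of pyruvate kinase transcripts in shCtrl and 1.84% and 2.47% in shTopors. Slc2a2, the GLUT2 gene, made up 69.7% and 85.4% of the transcripts of Slc2a1 to Slc2a4 in shCtrl and 40.3% and 66.3% in shTopors, so that shTopors 2 lay not far below shCtrl 1. The Pklr level itself was 42.3 and 35.6 TPM with shCtrl, and 53.9 (shTopors 1) and 22.2 TPM (shTopors 2) after knockdown, so in shTopors 1 its share was lower while its level was higher. Pfkl, the liver phosphofructokinase, took 56.4% and 54.9% of its family in shCtrl, 68.9% in shTopors 1 and 43.4% in shTopors 2, on opposite sides of the controls. These shares were not tested. Ldhb, the other main lactate dehydrogenase gene, was listed at 0 in all 4 libraries.

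**Figure D2:**
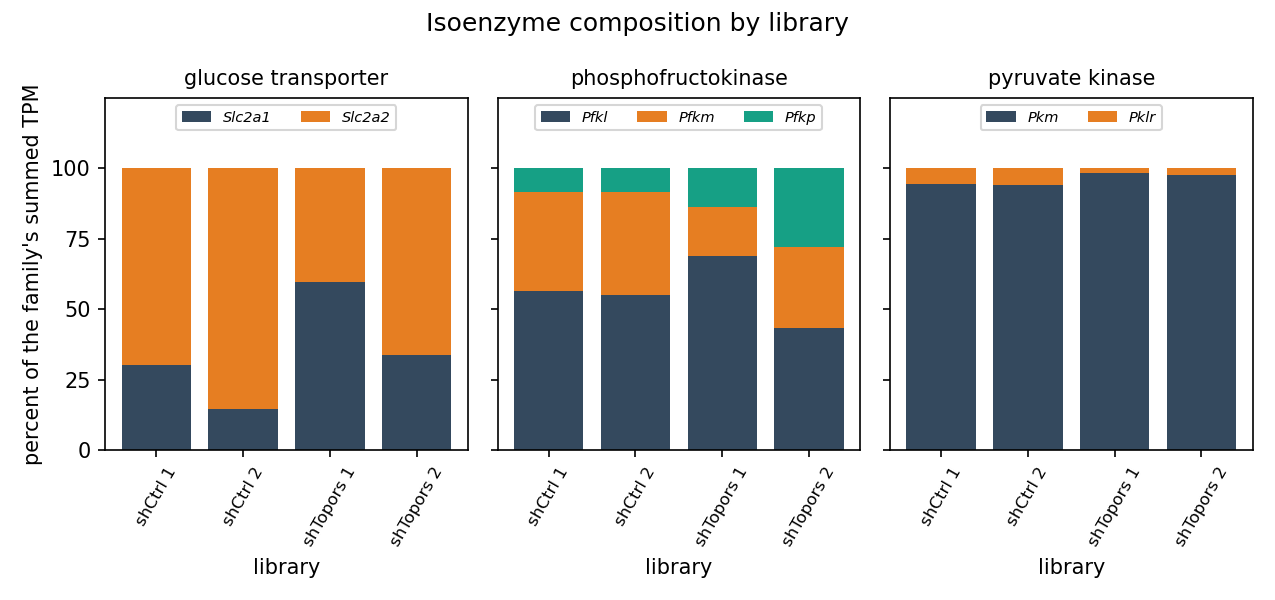
Percent of the summed TPM of each family (y axis) taken by each isoenzyme gene in the 4 libraries (x axis), for glucose transporters, phosphofructokinase and pyruvate kinase, as 1 stacked bar per library. Pfkp takes 8.38% and 8.47% in shCtrl and 13.9% and 28.0% in shTopors, and Pklr takes 5.55% and 6.002% in shCtrl and 1.84% and 2.47% in shTopors.

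HIF dimers bind DNA at a core of ACGTG or GCGTG. To show what these promoters hold, the 250 bases before each RefSeq start site (build GRCm38.p6) were searched on both strands, counting CACGTG on each strand. Of 34 members matched by symbol, 30 held at least 1 match (88.2%), against 41.5% of all 27025 genes in the table of promoters and 62.7% of the 9047 whose mean reached 1 TPM. Genes with several start sites count once here, by the window with the most matches, so more start sites give more chances of a match. Over single windows the shares were 75% of 52 for members and 38.6% of 32851 for all genes. The share over windows of expressed genes only was not computed. A match is a description of the letters and not a binding site. Bnip3l, Epas1, Ero1l, Ndrg1 and Slc2a3 had no entry. The windows below belong to the matching members with the smallest p in limma, are written in the direction of the gene, and have each match in capitals. Pfkp lies at chr13:6648772-6649021 on the minus strand and Pfkfb3 at chr2:11502091-11502340 on the minus strand, at 1 of its 2 RefSeq starts. Where a gene has several starts, a window with the most matches is shown. Pgam1 lies at chr19:41911621-41911870 on the plus strand and Egln3 at chr12:54203875-54204124 on the minus strand.
Pfkp: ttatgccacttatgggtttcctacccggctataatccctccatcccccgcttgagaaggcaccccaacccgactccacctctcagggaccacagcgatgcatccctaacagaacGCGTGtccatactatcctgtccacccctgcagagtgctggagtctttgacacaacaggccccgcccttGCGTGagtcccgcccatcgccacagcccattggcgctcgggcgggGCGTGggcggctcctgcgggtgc
Pfkfb3: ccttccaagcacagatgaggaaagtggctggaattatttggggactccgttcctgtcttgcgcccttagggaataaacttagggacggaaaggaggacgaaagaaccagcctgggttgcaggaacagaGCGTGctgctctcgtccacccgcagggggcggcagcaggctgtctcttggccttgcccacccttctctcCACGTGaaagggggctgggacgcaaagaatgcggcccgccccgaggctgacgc
Pgam1: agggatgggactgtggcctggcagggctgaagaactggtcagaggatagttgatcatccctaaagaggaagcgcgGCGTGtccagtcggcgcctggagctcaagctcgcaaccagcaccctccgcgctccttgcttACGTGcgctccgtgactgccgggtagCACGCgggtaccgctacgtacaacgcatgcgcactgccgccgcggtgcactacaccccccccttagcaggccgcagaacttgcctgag
Egln3: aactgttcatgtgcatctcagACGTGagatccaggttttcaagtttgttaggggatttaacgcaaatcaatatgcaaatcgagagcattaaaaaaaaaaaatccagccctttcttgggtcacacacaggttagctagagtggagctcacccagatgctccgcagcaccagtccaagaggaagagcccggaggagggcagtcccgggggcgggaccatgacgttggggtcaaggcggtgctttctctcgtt
Pfkp, Pfkfb3 and Pgam1 each held 3 matches and Egln3 held 1. For Pfkfb3, 2 of the 3 are the same CACGTG counted on each strand. Whether the matches go with the direction of a change was not tested.

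Hypoxia-response genes had no common direction. In shTopors 1, 8 of 17 tested genes lay above both controls and 7 below, against 28.9% and 53.5% of all tested genes. In shTopors 2, 4 lay above and 10 below, against 26.1% and 50.8%. Their median log2 change was -0.13, which is 0.053 above that of all tested genes, while the glycolysis median of 0.58 was 0.76 above it. Without shTopors 1 these excesses were -0.18 and 0.14, and without shTopors 2 they were 0.35 and 1.49. Car12 and Egln3 were above both controls in both knockdown libraries (14.6% of all tested genes), and Ndrg1, Vegfa, Bnip3l, Epas1, Egln1 and Kdm3a were below them (35.2%). After median-of-ratios scaling these counts of 2 and 6 became 6 and 3, against 24.5% and 24.0% of all tested genes, and with quantile normalization 5 and 4, against 24.6% and 22.7%, so the balance of directions depends on the scaling. With shTopors 1 alone, Bnip3, Car12, Egln3 and P4ha2 rose and Ndrg1 fell at an adjusted p of 0.05 in limma, which is 4 and 1 of 17, against 5.09% and 10.9% of all tested genes. With shTopors 2 alone, none rose and 3 of 17, Bnip3l, Ndrg1 and Vegfa, fell, against 1.82% and 6.67%.

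**Figure D3:**
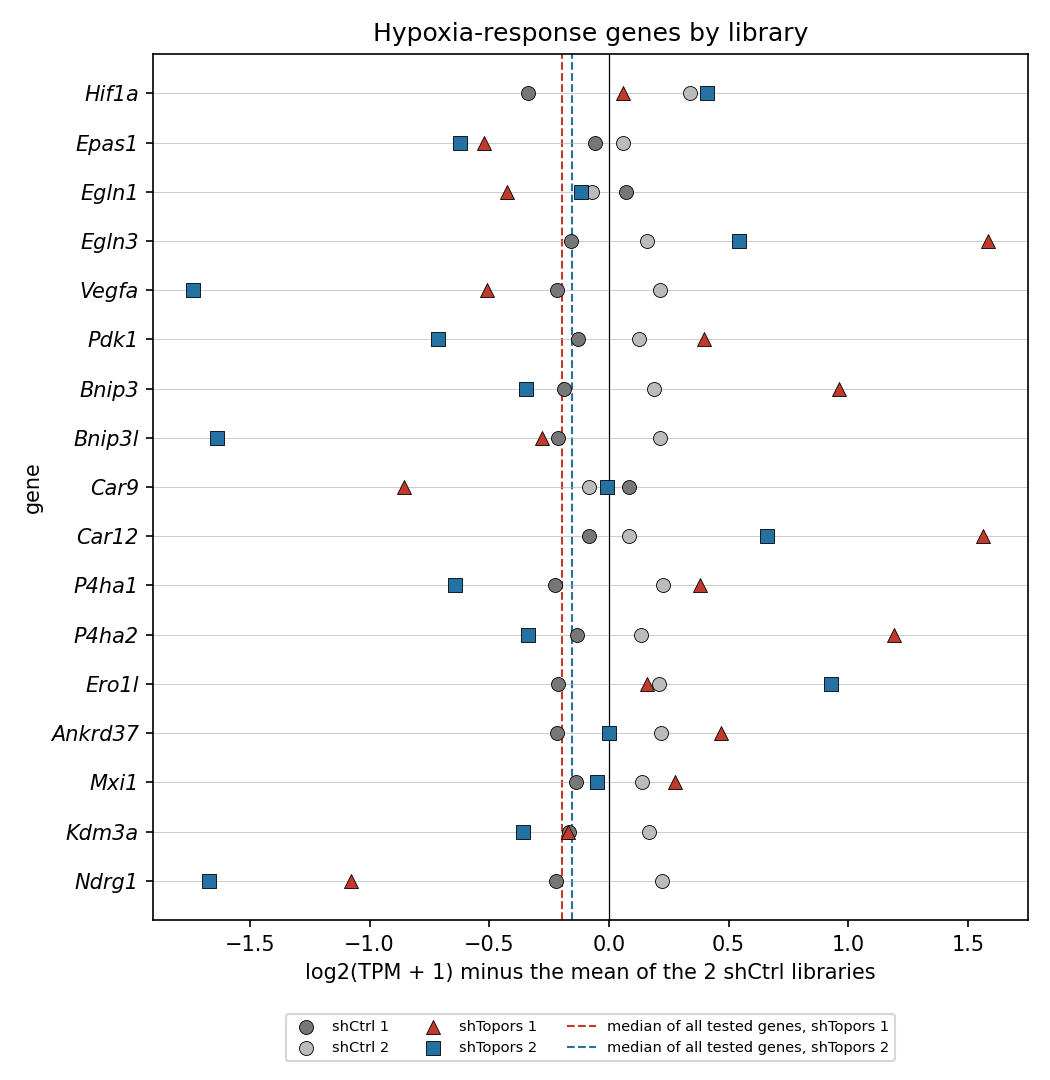
Difference in log2(TPM + 1) from the mean of the 2 shCtrl libraries (x axis) for the 17 tested hypoxia-response genes (y axis), with 1 symbol per library and dashed lines at the median of all tested genes in each knockdown library. Egln3 and Car12 lie right of both controls in both knockdown libraries, and Ndrg1, Vegfa, Bnip3l and Epas1 lie left of them.

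The HIF alpha subunit genes differed. Hif1a, which encodes HIF-1 alpha and is regulated mainly through protein stability, stood at 17.5 and 28.5 TPM in the controls, against 23.4 TPM for shTopors 1 and 30.0 TPM for shTopors 2. Its controls differed widely, shTopors 1 lay between them and shTopors 2 just above both. Epas1, which encodes HIF-2 alpha, was at 4.53 and 5.00 TPM in the controls and 3.02 and 2.74 TPM after knockdown. Both knockdown libraries were below both controls, by 1.66-fold between group means, with a log2 change of -0.57 (SE 0.28, adjusted p = 0.395 in limma).

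Oxygen-sensing hydroxylase genes went different ways. Egln1, which encodes the main HIF prolyl hydroxylase PHD2, stood at 48.8 and 44.2 TPM with shCtrl, and 34.4 (shTopors 1) and 42.7 TPM (shTopors 2) after knockdown. Egln3, which encodes PHD3 and is itself a HIF target, was at 11.3 and 14.4 TPM in the controls, against 40.2 TPM for shTopors 1 and 19.0 TPM for shTopors 2. The Egln3 groups were 12.8 ± 2.16 and 29.6 ± 14.9 TPM (SD, n = 2), with a log2 change of 1.06 (SE 0.39, adjusted p = 0.290 in limma).

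Genes for secreted factors also split. Vegfa, the angiogenic growth factor gene, stood at 11.1 and 15.3 TPM with shCtrl, and 8.88 (shTopors 1) and 3.22 TPM (shTopors 2) after knockdown, below both controls in both. Its log2 change was -1.12 (SE 0.44, adjusted p = 0.311 in limma), from -0.51 without shTopors 2 to -1.74 without shTopors 1. Adm, which encodes the vasodilator peptide adrenomedullin, was at 0.278 and 0.258 TPM in the controls, against 2.21 TPM for shTopors 1 and 0.742 TPM for shTopors 2, and was not tested because its mean was under 1 TPM.

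Of 3 targets that act at mitochondria, 2 had the knockdown libraries on opposite sides of the controls. Pdk1, which encodes a kinase that inhibits pyruvate dehydrogenase, stood at 13.6 and 16.4 TPM with shCtrl, and 20.0 (shTopors 1) and 8.72 TPM (shTopors 2) after knockdown. Bnip3, a mitophagy receptor gene, was at 60.7 and 78.9 TPM in the controls, against 136 TPM for shTopors 1 and 54.3 TPM for shTopors 2. Pdk1 and Bnip3 lay above the controls in shTopors 1 and below them in shTopors 2. The Bnip3 paralogue Bnip3l, also called Nix, was at 69.2 and 93.4 TPM with shCtrl, and 66.0 (shTopors 1) and 25.2 TPM (shTopors 2) after knockdown, below both controls in each, with a log2 change of -0.96 (SE 0.44, adjusted p = 0.375 in limma).

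Car9 and Car12 encode carbonic anhydrases on the cell surface that help export acid. Car9, often used as a marker of hypoxia, was low, at 1.98 and 1.66 TPM in the controls, against 0.555 TPM for shTopors 1 and 1.80 TPM for shTopors 2. Car12 was at 1.07 and 1.32 TPM with shCtrl, and 5.49 (shTopors 1) and 2.47 TPM (shTopors 2) after knockdown, with a log2 change of 1.11 (SE 0.37, adjusted p = 0.258 in limma). In shTopors 1 the carbonic anhydrases therefore lay on opposite sides of the controls.

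P4ha1 and P4ha2 encode the catalytic subunits of collagen prolyl hydroxylase. P4ha1 stood at 22.7 and 31.4 TPM in the controls, against 35.1 TPM for shTopors 1 and 16.7 TPM for shTopors 2, and P4ha2 at 21.7 and 26.3, 55.8 and 18.7 TPM. Both had the 2 knockdown libraries on opposite sides of the controls. Ero1l, an oxidase of disulfide formation in the endoplasmic reticulum, was at 13.2 and 18.1 TPM with shCtrl, and 17.4 (shTopors 1) and 30.3 TPM (shTopors 2) after knockdown, so that shTopors 2 was above both controls and shTopors 1 between them. Of the regulators, Ankrd37 was at 4.57 and 6.52 TPM in the controls and 7.97 and 5.47 TPM after knockdown, and Mxi1, a MYC antagonist, at 6.06 and 7.52 and at 8.40 and 6.5 TPM. Kdm3a, a histone H3 lysine demethylase gene, was at 44.7 and 56.8 TPM in the controls and 44.6 and 39.1 TPM after knockdown, which for shTopors 1 lay just under shCtrl 1.

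Ndrg1, a stress-responsive gene induced by hypoxia and linked to differentiation, was lower in both knockdown libraries. It stood at 412 and 561 TPM in the controls, against 227 TPM for shTopors 1 and 150.4 TPM for shTopors 2, below both controls in each. Control and knockdown averaged 486 ± 106 and 189 ± 54.4 TPM (SD, n = 2), 2.57-fold apart, with a log2 change of -1.37 (SE 0.28). Its adjusted p = 0.162 in limma did not pass. It was 0.00180 without shTopors 2 and 1.31e-05 without shTopors 1, 0.463 and 0.872 without shCtrl 1 and shCtrl 2, and from 0.128 to 0.382 over the 8 other settings. Ndrg1 (ENSMUSG00000005125, mm10, minus strand of chromosome 15, 66929318 to 66969640) overlaps Gm17035 and Gm2895 on the opposite strand. In its family, Ndrg3 was at 13.3 and 17.3 TPM in the controls and 9.04 and 8.20 TPM after knockdown, with a log2 change of -0.75 (SE 0.28, adjusted p = 0.303 in limma). Ndrg2 was at 0.526 and 2.51 TPM in the controls and 3.03 and 1.34 TPM after knockdown, and Ndrg4 was at most 0.635 TPM in any library. Ndrg1 is the member with the smallest p of the 36, and it was chosen with this pattern known.

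**Figure D4:**
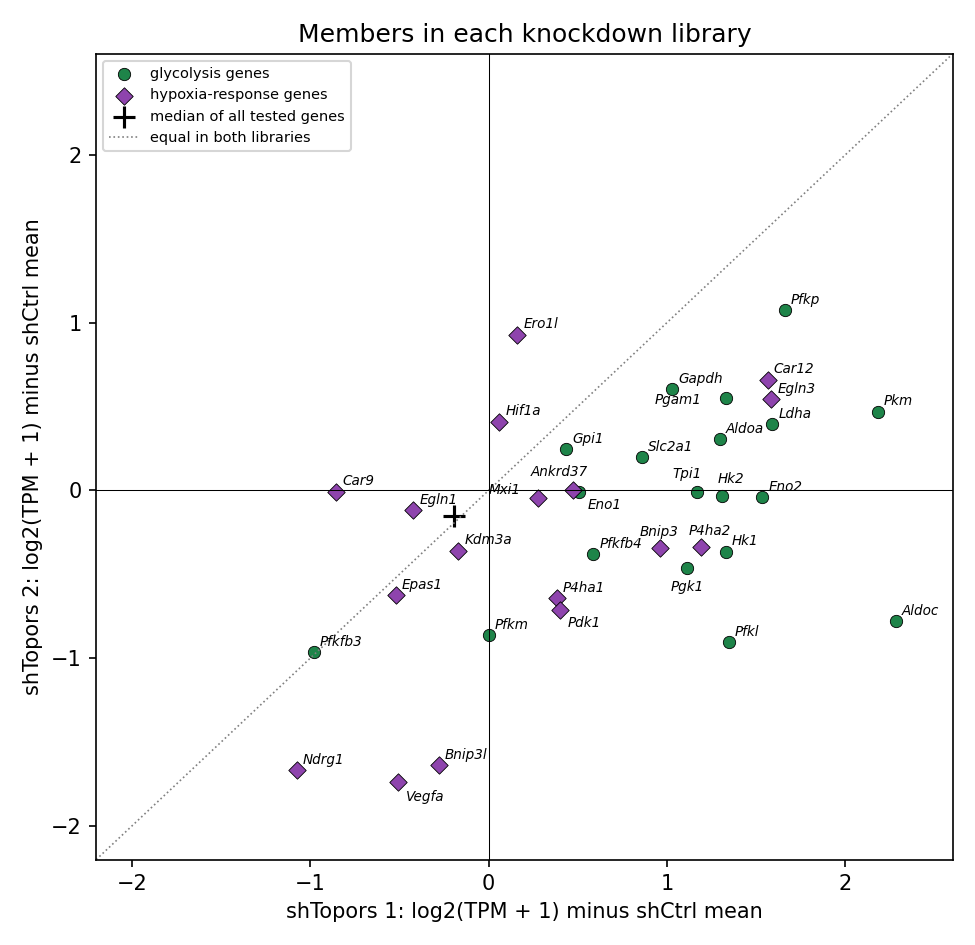
Difference from the shCtrl mean in log2(TPM + 1) in shTopors 1 (x axis) and shTopors 2 (y axis) for the 36 tested members, with a cross at the median of all tested genes and a dotted line where both libraries are equal. Points below the line are higher in shTopors 1, which holds for 18 of 19 glycolysis and 13 of 17 hypoxia-response genes, and Ndrg1 lies at -1.08 and -1.67.

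The other genes of these pathways, from lists that exclude the members, gave no call either. Of 18 tested genes for other glycolysis and pyruvate steps, none passed in limma, and at an unadjusted p under 0.05 none was higher and 2 were lower. Over all tested genes 3.98% were higher and 10.7% lower at that p, so the count of 2 is near that share. Slc2a2 was at 76.9 and 178 TPM in the controls and 39.7 and 72.5 TPM after knockdown, and Pdk3, a sister of Pdk1, at 9.04 and 10.6 and at 17.2 and 12.7 TPM. The median log2 change of the 18 genes was -0.050. In shTopors 1, 6 of the 18 lay above both controls, a share near the 28.9% of all tested genes.

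Of 12 tested genes for HIF partners and oxygen sensing, none passed, and without adjustment, at p under 0.05, 1 was higher and none lower. All tested genes gave 3.98% and 10.7% there. The 1 higher gene, Egln2, encodes the hydroxylase PHD1 and stood at 27.2 and 30.9 TPM in the controls and 64.9 and 49.3 TPM after knockdown. Its log2 change was 0.94 (SE 0.27, adjusted p = 0.224 in limma). Crebbp, a HIF coactivator, was at 22.2 and 23.0 TPM in the controls and 15.8 and 15.0 TPM after knockdown, and Cul2, the scaffold of the von Hippel-Lindau ligase, at 14.0 and 21.4 and at 25.8 and 24.5 TPM. Of 24 other tested hypoxia-inducible genes, none passed, and at an unadjusted p under 0.05 3 were higher and 2 lower, against the same 3.98% and 10.7%. Their median log2 change was -0.083. Tfrc, the transferrin receptor gene, stood at 26.1 and 42.7 TPM in the controls and 89.6 and 86.0 TPM after knockdown. Plod1, a collagen lysyl hydroxylase gene, was at 14.4 and 14.6 and at 27.0 and 24.2 TPM, and Ppp1r3c, a glycogen-targeting phosphatase subunit gene, at 1.89 and 3.38 and at 0.234 and 1.03 TPM.

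Other gene groups also differed between the knockdown libraries. The mean log2(TPM + 1) level of 20 G2/M genes was 2.83 and 3.18 in shCtrl, 4.56 in shTopors 1 and 3.73 in shTopors 2. All 20 were higher in shTopors 1 than in shTopors 2. All 20 also lay above both controls in both knockdown libraries, against 14.6% of all tested genes. The same mean over the 19 glycolysis genes was 5.94 and 5.95 in shCtrl, 7.03 in shTopors 1 and 5.90 in shTopors 2. Hepatocyte markers lay on both sides, with 5 of 10 above and 5 below both controls in shTopors 1, and 3 above and 6 below in shTopors 2. All tested genes gave 28.9% above and 53.5% below in shTopors 1, and 26.1% and 50.8% in shTopors 2. Alb, the albumin gene, was at 118 and 271 TPM with shCtrl, and 4.15 (shTopors 1) and 402 TPM (shTopors 2) after knockdown. Apoa1, an apolipoprotein gene, had the opposite order, at 12.3 and 28.4 TPM in the controls, against 113 TPM for shTopors 1 and 11.5 TPM for shTopors 2. Ttr, the transthyretin gene, was at 1119 and 2168 TPM in the controls and 195 and 410.3 TPM after knockdown, below both controls in each. Alb and Apoa1 are examples with a wide gap between the knockdown libraries. Apob and Trf lay below both controls in each, as Ttr did, Krt18 lay above both in each, and the other markers overlapped. The part of cell division and of hepatocyte state in the glycolysis levels was not tested.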

How the data were processed

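Strand-specific libraries were made after removal of ribosomal RNA, per the labels' protocols. The deposited table gives TPM for each gene and library. Tools named in the submitters' processing notes, with neither version nor role, are StringTie, HTSeq, HISAT2 and DESeq2, and the build there is mm10. Values of 6 rows that shared identifiers were summed, and columns were matched to samples by name. TPM summed to between 999914 and 999943. Small RNAs took 25.8% to 30.4% of TPM.

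Genes whose mean reached 1 TPM entered limma 3.58.1 as log2(TPM + 1) (R 4.3.3, mean-variance trend, shTopors minus shCtrl), Benjamini-Hochberg over 13509 genes and a threshold of 0.05. Such fold changes understate low genes. Simulated data with a large added change served to check that its size was recovered. That check does not show how often smaller changes are called. Coordinates are GENCODE M21, mm10. Promoters are from RefSeq. The members and lists were chosen with earlier results of these data known. Named genes are all members, the NDRG family and up to 3 genes per other list with the smallest p, and some of these are not reported here. Alternatives were pseudocounts, filters, scalings, no trend, a replicate block and omission of single libraries. Scripts ran in Python 3.11.15 with pandas 2.3.3.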

Additional observations from a re-analysis of the deposited data

How the results depend on the processing

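No member passed under the 8 settings that kept all libraries. With 1 library left out, members called ranged from 0 to 19, with 19 of 36 without shTopors 2, against 16% of all tested genes, and 4 of 36 without shTopors 1, against 8.49%. The glycolysis median excess over all tested genes ranged from 0.14 to 1.49 and the hypoxia-response excess from -0.18 to 0.35, negative without shTopors 1. In the other settings they ranged from 0.56 to 0.79 and from 0.016 to 0.15. The Ndrg1 log2 change ranged from -1.67 to -1.08 with 1 library left out. Members whose log2 change reversed there were Aldoc from -0.78 to 2.28, Bnip3 from -0.34 to 0.96, Eno1 from -0.012 to 0.51, Eno2 from -0.042 to 1.53, Hif1a from -0.10 to 0.57, Hk1 from -0.36 to 1.33, Hk2 from -0.034 to 1.31, Mxi1 from -0.048 to 0.28, P4ha1 from -0.64 to 0.38, P4ha2 from -0.34 to 1.19, Pdk1 from -0.71 to 0.40, Pfkfb4 from -0.38 to 0.59, Pfkl from -0.90 to 1.35, Pfkm from -0.86 to 0.00072, Pgk1 from -0.46 to 1.11 and Tpi1 from -0.012 to 1.17. P4ha1 and Pdk1 were 0.052 and 0.020 after median-of-ratios scaling and 0.021 and 0.027 after quantile normalization. The causes were not tested. With the replicate block, 0 members passed and Ndrg1 stayed at -1.37 (adjusted p = 0.128 in limma), while calls over all genes went from 5 to 33. The replicate numbers pair no samples in the labels, and the deviations of same-numbered libraries correlated at 0.199 over tested genes.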

Other observations

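Ratios of paralogues within a library, chosen after their values were seen and not tested, differed between groups. Of the genes in them, Bnip3 had the knockdown libraries on opposite sides of the controls, and Hif1a had shTopors 1 between the controls. Bnip3l, Epas1 and Egln1 were below both controls in both knockdown libraries and Egln3 was above them. For Egln3 and Egln1 a ratio that differs thus follows from the levels. The TPM ratio of Bnip3 to Bnip3l was 0.878 and 0.845 in shCtrl and 2.05 and 2.16 in shTopors. The ratio of Hif1a to Epas1 was 3.86 and 5.71 in shCtrl and 7.74 and 10.97 in shTopors, and that of Egln3 to Egln1 was 0.232 and 0.325 in shCtrl and 1.17 and 0.446 in shTopors. The 3 pairs were the only ratios computed, beside the isoenzyme shares within families. Among members, the shares of Eno1, Eno2, Pfkl, Pfkfb4, Ldha and Slc2a3 overlapped between groups. Those of Pfkm, Pfkp, Pkm, Slc2a1 and Pfkfb3 did not. Of all tested genes, 14.6% had levels above both controls in both knockdown libraries and 35.2% had levels below. Groups that do not overlap are thus common in these data and do not single out these members. Shares within a family also depend on each other.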
